A study of Mus musculus with 2 samples.

Results

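The genes described here code for the heat shock proteins and chaperonins of the mouse and for the J-domain proteins that work with them, measured in the embryonic midbrain. They were all protein-coding genes of the GENCODE M21 annotation whose symbol begins with Hspa, Hspb, Hsp90, Dnaja, Dnajb, Dnajc or Cct and a number, together with Hsph1, Hspd1 and Hspe1. The rule found 80 genes, and 79 of them were measured, among 21474 protein-coding genes and 43346 genes of any type. Hspa14 was the gene without a value, because its M21 identifier was not in the tables. The entry at its locus, which M21 names Gm45902, was measured but is outside the set. The rule reads symbols and gene types, not levels.

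Total RNA of the midbrain was sequenced in 2 libraries that form 1 group. Both came from healthy B6NCrl embryos at embryonic day 16.5, with males and females pooled, and replicate 2 pooled 37 embryos. The number of embryos is not given for replicate 1, and both libraries carry the same donor identifier. Each library started from 10 ng of RNA longer than 200 nucleotides, with spike-in sequences added. No treatment, mutant or second tissue was analysed here, so there is nothing to test between conditions, p-values are not given, and errors are the SD over the 2 pools (n = 2).

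The libraries held 36576263 (replicate 2) and 31830355 (replicate 1) expected counts in all. All 6 markers of midbrain territory were detected in both libraries, among them Otx2 and En1, whereas none of 6 hindbrain markers reached 1 TPM in either and Hoxb4 was at 0. All 6 neuronal markers were detected, with a summed level of 3652 TPM in replicate 2 and 3656 TPM in replicate 1. Markers of other cells were present as well, with all 6 of endothelium, all 6 of red cells, all 5 of microglia and 5 of 8 of mural cells detected. The 6 markers of radial glia and astrocytes summed to 2424 TPM in replicate 2 and 1751 TPM in replicate 1.

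Chaperones hold unfolded or partly folded proteins, keep them from clumping and help them reach their shape. HSP70 proteins bind and release short stretches of a client in a cycle driven by ATP, J-domain proteins bring them clients and start that cycle, and exchange factors reset it. HSP90 acts later on clients such as kinases and receptors, and chaperonins enclose a client in a ring. Cells keep one set of these genes on at all times and induce another through heat shock factors when proteins unfold.

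A total of 7 of the genes carry, in the RefSeq promoter windows of GRCm38.p6 (250 bases before to 50 after the start), an exact copy of an element that responds to unfolded protein, and the stretches around these elements are shown with the element in capitals. The heat shock element searched for was a run of at least 3 alternating units GAA and TTC, each 2 bases apart, on either strand. The element of the endoplasmic reticulum stress response was CCAAT, any 9 bases, then CCACG, on either strand. Hspe1 and Hspd1, which code for the 2 parts of the mitochondrial chaperonin, lie head to head on chromosome 1. Their windows share 1 run of 18 bases with units of the heat shock element, at chr1:55088059-55088076. It ends 72 bases before the start of Hspe1 and, read on the other strand, 127 bases before the start of Hspd1. The 150 bases before the start of Hspe1, at chr1:55087998-55088147 on the plus strand, read as follows.
Hspe1: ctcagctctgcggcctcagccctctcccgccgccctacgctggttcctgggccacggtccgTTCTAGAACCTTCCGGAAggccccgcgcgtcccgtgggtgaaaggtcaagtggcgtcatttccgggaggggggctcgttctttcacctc

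In Dnajb6 the heat shock element lay from 46 to 34 bases before the start, within the stretch chr5:29735798-29735897 on the plus strand, and from 127 to 115 bases before another RefSeq start. In Hsph1 it lay after the start, at bases 37 to 49, within chr5:149636287-149636316 on the minus strand, and at bases 16 to 28 from another RefSeq start.
Dnajb6: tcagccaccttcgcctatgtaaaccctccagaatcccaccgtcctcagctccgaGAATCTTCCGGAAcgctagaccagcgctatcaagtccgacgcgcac
Hsph1: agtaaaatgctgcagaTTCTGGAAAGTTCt

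The element of the endoplasmic reticulum stress response was found in 3 genes, all of which code for proteins of that compartment. Hspa5 held 1 copy from 65 to 47 bases before the start, in chr2:34771840-34772089 on the plus strand. Dnajc3 held 1 copy from 105 to 87 bases before the start, in chr14:118937783-118937882 on the plus strand. Hsp90b1 held 2 copies in opposite orientation, from 212 to 194 and from 107 to 89 bases before the start, in chr10:86705445-86705694 on the minus strand.
Hspa5: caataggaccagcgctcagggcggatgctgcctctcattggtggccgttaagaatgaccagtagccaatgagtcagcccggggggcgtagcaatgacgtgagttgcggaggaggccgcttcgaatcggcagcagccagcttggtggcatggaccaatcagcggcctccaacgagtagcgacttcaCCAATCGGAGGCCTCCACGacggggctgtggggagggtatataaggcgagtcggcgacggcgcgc
Hsp90b1: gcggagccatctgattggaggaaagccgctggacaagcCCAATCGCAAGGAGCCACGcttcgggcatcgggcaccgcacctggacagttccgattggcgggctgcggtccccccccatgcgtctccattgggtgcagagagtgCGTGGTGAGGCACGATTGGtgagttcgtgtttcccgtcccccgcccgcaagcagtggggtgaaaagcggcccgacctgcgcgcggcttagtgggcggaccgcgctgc
Dnajc3: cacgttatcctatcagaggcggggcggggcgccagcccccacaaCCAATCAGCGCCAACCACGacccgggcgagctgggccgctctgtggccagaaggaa

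RefSeq windows were given for 64 of the 79 genes, and the others, among them Hspa8, Hsp90aa1 and Hsp90ab1, were not searched. A heat shock element of 3 units stood in 4 of these 64 (6.25%) and in 179 of all 27025 genes with a window (0.662%). The windows of Hspa1a, Hspa1b and Hspb1 were searched and held no element of 3 units. The endoplasmic reticulum element stood in 3 of 64 (4.69%) and in 37 of 27025 (0.137%). For comparison, TATAAA on the strand of the gene stood in 6.25% of the chaperone genes and in 9.77% of all genes, and CCAAT on either strand in 42.2% of the chaperone genes and in 41.1% of all genes. A match describes letters and does not show that a factor binds there.

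**Figure D1:**
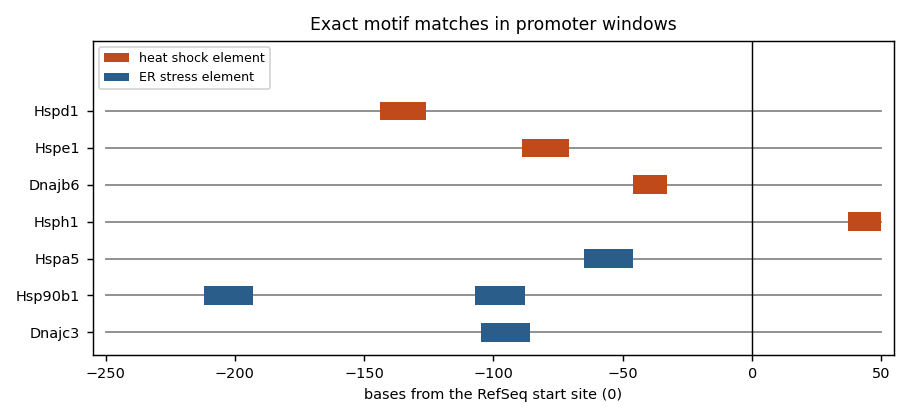
Positions of exact matches in 7 promoter windows, with distance from the RefSeq start in bases on the horizontal axis, genes down the page, and heat shock elements and endoplasmic reticulum (ER) stress elements as coloured blocks. The other windows hold their elements before the start, and Hsph1 holds its element after it.

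Of the 79 chaperone genes 67 (84.8%) were detected, meaning at least 1 TPM (a level per transcript length that sums to one total in every library) in both libraries, against 62.1% of all protein-coding genes. At 10 TPM in both libraries stood 54 of 79 (68.4%), against 41.2% of all protein-coding genes, and at 100 TPM 20 of 79 (25.3%), against 7.75%. The median level was 34.2 TPM in replicate 2 and 35.1 TPM in replicate 1 for the chaperone genes, and 5.21 and 5.25 TPM for all protein-coding genes in the same order. The genes were 0.368% of the protein-coding genes by number and held 1.33% of protein-coding TPM in replicate 2 and 1.38% in replicate 1. In bulk tissue fewer cells with a transcript and less of it per cell cannot be told apart, which holds for every level given here.

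The set spanned from no count at all to Hspa8, the 18th highest protein-coding gene by mean TPM. Hspa8, Hsp90aa1 and Hsp90ab1 alone held 46.0% of the summed TPM of the 79 genes in each library. By class, the HSP70 genes (Hspa) held 30.6 ± 0.265% of that sum (SD, n = 2) and the HSP90 genes with Hsph1 24.2 ± 0.00684%. The CCT subunits held 16.5 ± 0.0829%, and the Hspb genes, with Hspb11 the highest of them, 0.450 ± 0.0115%. The 45 J-domain genes of Dnaja, Dnajb and Dnajc together had 2844 ± 68.8 TPM. Of the genes with a main compartment that is well known, 19 cytosolic ones summed to 6979 ± 277 TPM, 10 of the endoplasmic reticulum to 895 ± 57.6 TPM and 8 mitochondrial ones to 873 ± 27.3 TPM.

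**Figure D2:**
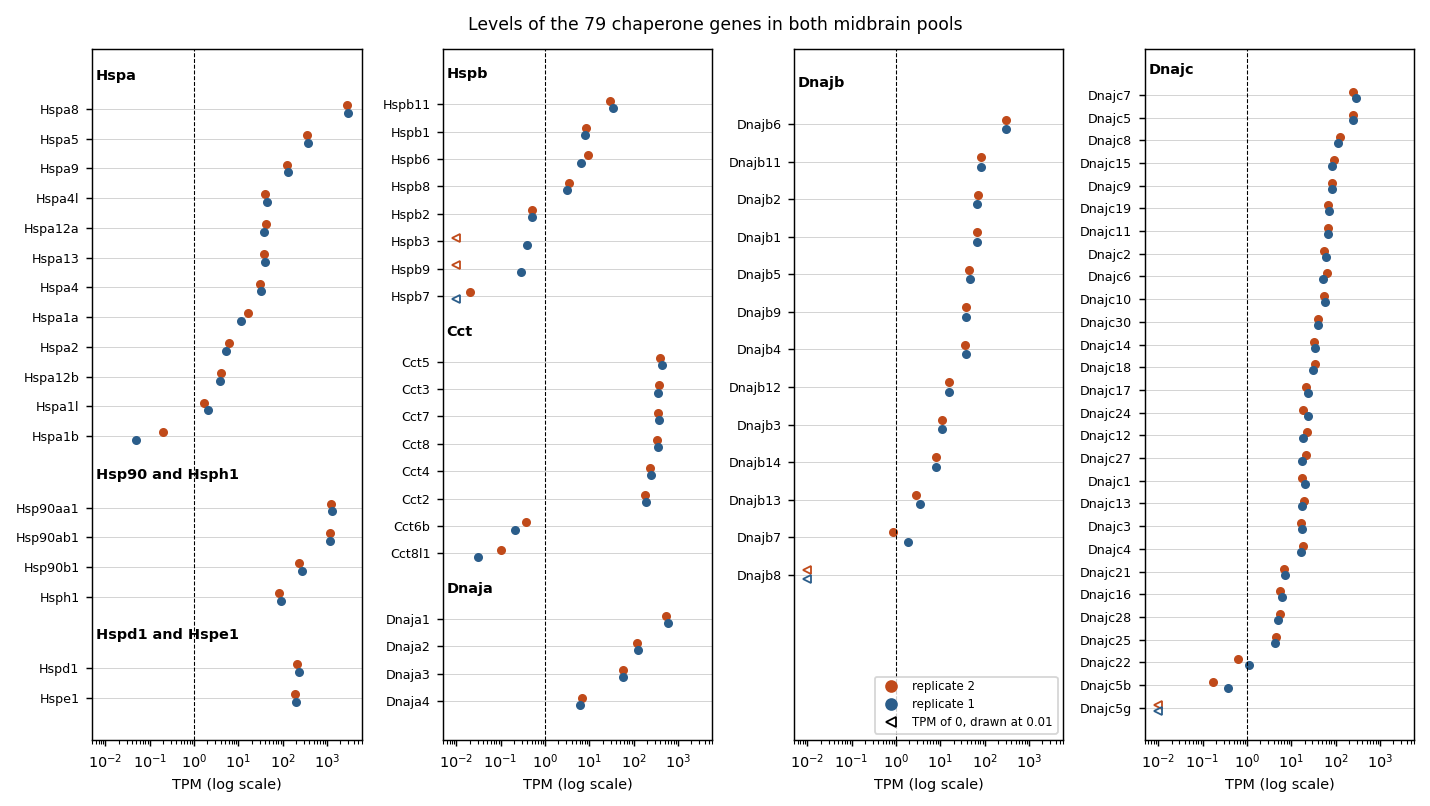
TPM on a log scale of each of the 79 genes by class, replicate 2 and replicate 1 as separate points, with a dashed line at 1 TPM and open triangles for a TPM of 0. Both points of a gene lie close together above about 1 TPM, and 10 genes lie left of the line in both libraries.

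Among the HSP70 genes, 11 of 12 were detected and 1 of them dominated. Hspa8, the constitutive HSP70 of the cytosol (chr9:40800984-40810087), had 2773 TPM in replicate 2 and 2950 TPM in replicate 1, or 81.0% of the TPM of its class in each. Hspa5, also called BiP, the HSP70 of the endoplasmic reticulum whose promoter is shown above, had 349 and 379 TPM in replicates 2 and 1. Hspa9, the mitochondrial HSP70, had 123 and 134 TPM. Hspa8 shares 29.6% of its words with the pseudogene Gm8355, listed at 67.4 TPM in replicate 2 and 71.7 TPM in replicate 1, and 38.2% with the non-coding gene Gm26825, at 24.0 and 19.9 TPM, so some of its reads may be divided otherwise. The order cytosol, endoplasmic reticulum, mitochondria held in both pools: Hspa8 exceeded Hspa5 by 7.94-fold in replicate 2 and 7.77-fold in replicate 1, and Hspa9 by 22.6-fold and 22.0-fold.

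The HSP70 relatives that act as exchange factors were lower. Hspa4l had 40.5 TPM in replicate 2 and 45.2 TPM in replicate 1, and Hspa4 31.4 and 32.0 TPM. Transcript models not annotated as protein-coding held 51.6% of the TPM of Hspa4l in replicate 2 and 54.4% in replicate 1. For Hspa4 they held 51.3% and 51.4%. Hspa12a, a distant relative of HSP70, had 41.3 and 38.4 TPM, so that its order against Hspa4l differed between the pools. Hspa13, an HSP70 relative of the endoplasmic reticulum, had 37.2 and 39.3 TPM. Gm45902, the entry at the Hspa14 locus and outside the set, had 61.85 TPM in replicate 2 and 60.94 TPM in replicate 1. Hspa12b, a relative known from endothelium, had 4.15 TPM in replicate 2 and 3.80 TPM in replicate 1. The 6 endothelial markers summed to 161 TPM in replicate 2 and 170 TPM in replicate 1.

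The stress-inducible HSP70 genes stood far below Hspa8. Hspa1a (chr17:34969190-34972156) had 16.1 TPM and 997 expected counts in replicate 2, and 11.4 TPM and 603 expected counts in replicate 1. The level of Hspa8 was 172-fold that of Hspa1a in replicate 2 and 260-fold in replicate 1. Hspa1b, its near-identical neighbour (chr17:34956436-34959238), was listed at 0.20 TPM in replicate 2 and 0.05 TPM in replicate 1, from 11.7 and 2.37 expected counts. The 2 genes share 1873 words of 31 bases, which is 63.8% of the words of Hspa1a and 67.6% of those of Hspa1b, so how reads were divided between them is uncertain. Summing both genes left the log2 ratio of Hspa8 at 7.71, against 7.72 ± 0.42 for Hspa1a alone. Hspa1l and Hspa2, HSP70 genes best known from testis, had 1.66 and 6.09 TPM in replicate 2, and 2.07 and 5.16 TPM in replicate 1. Hspa1l shares 71.7% of its words with the antisense gene Gm10501, at 2.69 TPM in replicate 2 and 3.14 TPM in replicate 1, and the strand used in counting is not stated, so its level is uncertain. Of the 5 markers of the male germ line 1 was detected, Acr, with 1.29 TPM in replicate 2 and 1.35 TPM in replicate 1. Ddx4 had 0.59 and 0.86 TPM, Prm1 had 0.38 and 0.58 TPM, and Prm2 and Tnp1 were at 0 in both libraries. The list summed to 2.26 TPM in replicate 2 and 2.79 TPM in replicate 1, and its part in these 2 levels was not tested.

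The HSP90 genes and Hsph1, 4 genes in all, were detected above 80 TPM. Hsp90aa1, the inducible cytosolic HSP90 (chr12:110690605-110702728), had 1256 TPM in replicate 2 and 1296 TPM in replicate 1. Hsp90ab1, the constitutive cytosolic HSP90 (chr17:45567775-45573271), had 1148 and 1196 TPM. Hsp90b1, the HSP90 of the endoplasmic reticulum, had 238 and 276 TPM, and Hsph1, an exchange factor for HSP70, had 80.5 and 93.1 TPM.

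The order of the 2 cytosolic HSP90 genes depended on the transcripts that were counted. On gene TPM, Hsp90ab1 was lower than Hsp90aa1 by a log2 ratio of -0.12 ± 0.0095 (SD, n = 2). On expected counts, with no correction for length, Hsp90ab1 was higher, at 46929 counts in replicate 2 and 42242 in replicate 1, against 34225 and 30539 for Hsp90aa1. Most of the TPM of Hsp90aa1 was assigned to short transcript models. Hsp90aa1-208, a coding model of 711 bases, held 52.6% of the gene's TPM in replicate 2 and 53.5% in replicate 1, while the model of 3281 bases, Hsp90aa1-202, held 19.1% and 19.5%. In Hsp90ab1 the longest model, Hsp90ab1-201 of 2520 bases, held 71.2% and 71.9%. Taking only coding transcripts of at least 50% of the longest coding length, Hsp90ab1 was 2.61-fold higher than Hsp90aa1 in replicate 2 and 2.62-fold higher in replicate 1. Hsp90aa1 also shares 46.7% of its words with the pseudogene Gm12346, listed at 4.11 TPM in replicate 2 and 5.10 TPM in replicate 1.

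This pattern was examined over the 47 chaperone genes with at least 5 TPM in both libraries and at least 2 transcripts. In 10 of the 47 (21.3%), at least 25% of the TPM in both libraries fell on models under 50% of the longest coding length, against 28.3% of all protein-coding genes chosen the same way. The same 10 genes had smaller shares of their expected counts on such models, because a short model turns a read into more TPM. In Hsp90aa1, short models held 75.1% of TPM and 39.2% of counts in replicate 2, and 74.7% and 38.7% in replicate 1. In Hspa8, where the retained-intron model Hspa8-204 of 456 bases is the main one of them, they held 30.1% of TPM and 8.05% of counts in replicate 2, and 31.3% and 8.30% in replicate 1. In Dnaja1 they held 58.4% of TPM and 24.2% of counts in replicate 2, and 63.4% and 27.6% in replicate 1. Over the 47 genes the median share of TPM on short models was 7.96% in replicate 2 and 6.42% in replicate 1.

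**Figure D3:**
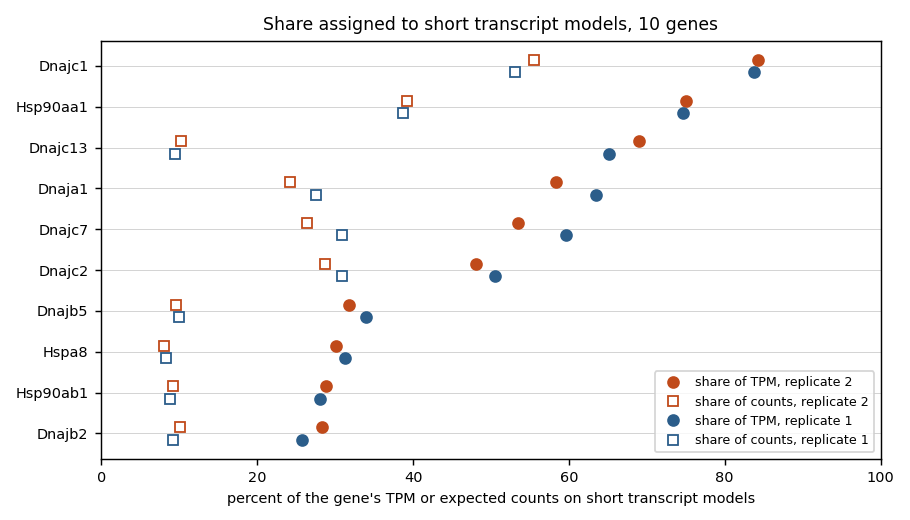
Share of a gene's TPM (filled circles) and of its expected counts (open squares) on transcript models shorter than 50% of the longest coding model, in percent, for the 10 genes with at least 25% of TPM there in both libraries. The square lies left of the circle for each gene in each library.

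Among all transcripts of these 47 genes, the leading transcript was the same in both libraries in each gene. It held a median 73.2% of the gene's TPM, at least 90% in 10 genes and under 50% in 10. In 3 genes (6.38%) the leading transcript by TPM was not annotated as protein-coding, against 7.67% of all protein-coding genes chosen the same way. Dnajc2, a ribosome-associated J-domain protein, was led by the retained-intron form Dnajc2-207, with 47.6% in replicate 2 and 48.9% in replicate 1. By expected counts the coding Dnajc2-201 led instead, with 981 counts in replicate 2 and 931 in replicate 1, against 524 and 495 for Dnajc2-207. Dnajc1, a J-domain protein of the endoplasmic reticulum membrane, was led by the retained-intron form Dnajc1-208, with 41.2% and 41.3%. Dnajc5, the cysteine string protein of synaptic vesicles, was led by Dnajc5-204, a form annotated for nonsense-mediated decay, with 45.5% and 42.9%, ahead of the coding Dnajc5-203 with 35.3% and 38.8%. For Dnajc5 the 2 models differ little in length, at 3728 and 3664 bases, and the deposited estimate divides reads that fit both. For Dnajc1 the counts were low, with 99.3 expected counts on Dnajc1-208 in replicate 2 and 102 in replicate 1. By counts Dnajc1-201, annotated for nonsense-mediated decay, led with 244 in replicate 2 and 178 in replicate 1. Dnajc1 also shares 749 exon bases with Mllt10 on the opposite strand, at 36.2 TPM in replicate 2 and 38.4 TPM in replicate 1, and Dnajc1-208 is 749 bases long, so its share is uncertain.

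Of the Hspb genes, named for the small heat shock proteins, which hold unfolded proteins without ATP, 4 of 8 were detected. The highest was Hspb11, a part of the transport machinery of cilia despite its name, with 29.7 TPM in replicate 2 and 33.5 TPM in replicate 1. That was most of the class sum, which was 51.5 TPM in replicate 2 and 52.2 TPM in replicate 1. Hspb6 had 9.34 and 6.32 TPM, Hspb1 8.42 and 8.09 TPM, and Hspb8, a partner of Bag3, 3.54 and 3.15 TPM. Hspb1 shares 52.3% of its words with the pseudogene Hsp25-ps1, which was at 0 in both libraries. The other members were below 1 TPM in both: Hspb2, known from muscle, had 0.50 TPM in replicate 2 and 0.51 TPM in replicate 1. Hspb3 was at 0 in replicate 2 and 0.40 TPM in replicate 1, Hspb9 at 0 and 0.29 TPM, and Hspb7, known from heart, at 0.02 TPM and 0. Of 6 skeletal muscle markers 1 was detected, Acta1, with 8.73 TPM in replicate 2 and 7.62 TPM in replicate 1.

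The mitochondrial chaperonin genes were close to each other in level. Hspd1, the ring protein HSP60 (chr1:55077835-55088243), had 212 TPM in replicate 2 and 232 TPM in replicate 1. Hspe1, the lid protein HSP10 (chr1:55088132-55091307), had 188 and 202 TPM. The log2 ratio of Hspd1 over Hspe1 was 0.19 ± 0.017 (SD, n = 2) on TPM. On expected counts it was 1.87, since the Hspe1 transcript is much shorter. Their exons overlap by 112 bases on opposite strands, and Hspd1 shares 46.5% of its words with the pseudogene Hspd1-ps3, listed at 2.25 TPM in replicate 2 and 3.81 TPM in replicate 1.

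The CCT chaperonin (also TRiC) is a ring of different subunits that folds actin and tubulin. Of the 8 genes with a Cct symbol 6 were detected, and the highest exceeded the lowest 2.20-fold in replicate 2 and 2.31-fold in replicate 1. Cct5 was highest, with 395 TPM in replicate 2 and 428 TPM in replicate 1, and Cct2 lowest, with 179 and 185 TPM. Between them stood Cct3 with 373 and 357 TPM, Cct7 with 351 and 368 TPM, Cct8 with 334 and 360 TPM, and Cct4 with 231 and 246 TPM. Cct3 stood above Cct7 and Cct8 in replicate 2 and below both in replicate 1, whereas Cct7 exceeded Cct8 in each. The retained-intron model Cct3-203 of 472 bases held 26.2% of the TPM of Cct3 in replicate 2 and 21.2% in replicate 1. In both pools Cct5 was highest of these 6, Cct4 next to lowest and Cct2 lowest. The ring's other subunits do not carry the rule's symbol or type: Tcp1 had 285 and 317 TPM, and Cct6a, typed as a processed transcript in M21, had 390 and 396 TPM. With Cct6a included, the coefficient of variation over 7 subunits was 26.1% in replicate 2 and 25.9% in replicate 1, and with Tcp1 as well it was 24.8% and 24.2%. Cct6b, the testis form of subunit 6, had 0.38 TPM in replicate 2 and 0.21 TPM in replicate 1, and Cct8l1 had 0.10 and 0.03 TPM.

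**Figure D4:**
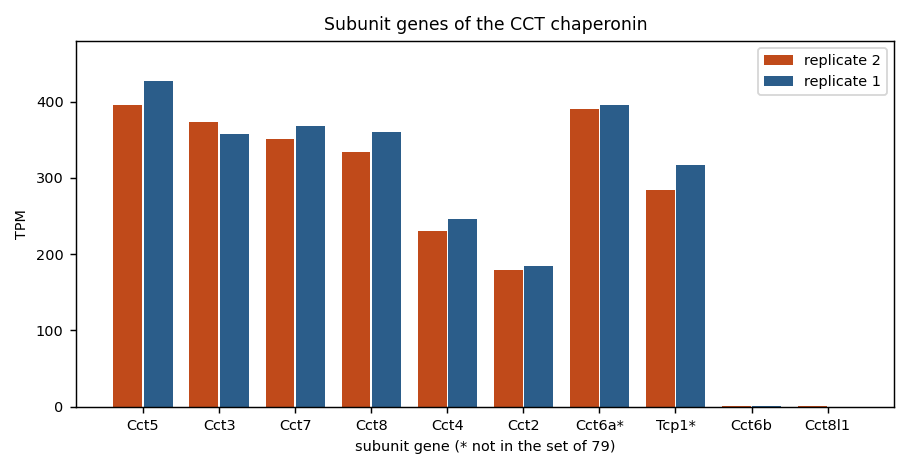
TPM of the CCT subunit genes, with replicate 2 left of replicate 1 in each pair of bars and an asterisk on the genes outside the set of 79. The 6 detected members and the 2 genes with an asterisk all lie between 179 and 428 TPM, and Cct6b and Cct8l1 lie near 0.

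The J-domain genes were the largest group, and 40 of the 45 were detected. Their summed TPM was close to that of the Hspa class: the Hspa sum exceeded it 1.22-fold in replicate 2 and 1.26-fold in replicate 1. The Hspa sum includes exchange factors and distant relatives of HSP70, and Hspa8 held 81.0% of it in each library. The 5 highest J-domain genes held 52.1% of J-domain TPM in replicate 2 and 54.0% in replicate 1. Dnaja1, a cytosolic partner of Hspa8, led with 540 TPM in replicate 2 and 598 TPM in replicate 1. Dnaja2, its relative, had 122 and 128 TPM, Dnaja3, the mitochondrial form, 58.6 and 58.5 TPM, and Dnaja4 6.99 and 6.23 TPM. Dnaja4 shares 1581 exon bases with Wdr61, a protein-coding gene on the opposite strand at 76.8 TPM in replicate 2 and 76.1 TPM in replicate 1, so its level is uncertain.

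Within Dnajb, 11 of 13 genes were detected. Dnajb6, a cytosolic protein known to keep polyglutamine proteins from aggregating, had 297 TPM in replicate 2 and 309 TPM in replicate 1. Its coding form of 1605 bases, Dnajb6-203, held 90.3% and 89.6% of that. Dnajb11, of the endoplasmic reticulum, had 81.2 and 82.6 TPM. Dnajb2 had 70.3 and 67.1 TPM, and Dnajb1, the inducible HSP40 that works with HSP70, had 66.6 and 68.2 TPM. Dnajb5 had 44.8 and 47.9 TPM. At the other end, Dnajb7 had 0.84 TPM in replicate 2 and 1.82 TPM in replicate 1, and Dnajb8 had no count in either library, which allows up to 0.156 TPM in replicate 2 and 0.182 TPM in replicate 1 at 3 counts.

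Within Dnajc, 25 of 28 genes were detected. Dnajc7, a cytosolic co-chaperone that binds both HSP70 and HSP90, had 246 TPM in replicate 2 and 283 TPM in replicate 1. Dnajc5, of synaptic vesicles, had 251 and 245 TPM, so the order of the 2 highest genes by TPM differed between pools. Short models held 53.5% of the TPM of Dnajc7 in replicate 2 and 59.6% in replicate 1. On expected counts Dnajc5 led in both, with 20531 in replicate 2 and 17307 in replicate 1, against 7338 and 6730 for Dnajc7. Dnajc8, associated with splicing factors, had 128 and 116 TPM. Dnajc15, of the inner mitochondrial membrane, had 94.0 and 84.1 TPM, and Dnajc9, a nuclear protein that binds histones, 82.1 and 85.1 TPM. Dnajc6, the neuronal auxilin that uncoats clathrin vesicles, had 63.7 and 51.8 TPM. In all, 3 genes fell short of detection: Dnajc22, with 0.63 TPM in replicate 2 and 1.09 TPM in replicate 1, Dnajc5b, with 0.17 and 0.37 TPM, and Dnajc5g, with no count, which allows up to 0.175 and 0.204 TPM. These last 2 are relatives of Dnajc5, which was above 240 TPM.

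The J-domain proteins placed in each organelle covered a wide range, and which HSP70 each one serves was not tested. In the endoplasmic reticulum, where Hspa5 is the HSP70, Dnajb11 was followed by Dnajc10, which also reduces disulfide bonds, with 54.1 TPM in replicate 2 and 58.7 TPM in replicate 1. Dnajb9, a repressor of the stress sensor Ire1, had 37.9 and 37.4 TPM. Dnajc1 had 17.2 and 20.5 TPM, and Dnajc3, whose promoter is shown above, 16.8 and 17.9 TPM. Dnajb12 and Dnajb14, which sit in the membrane, had 15.3 and 7.91 TPM in replicate 2, and 16.1 and 8.15 TPM in replicate 1. In mitochondria, where Hspa9 is the HSP70, Dnajc15 was followed by Dnajc19, of the import motor, with 68.9 and 71.1 TPM. Dnajc11, of the inner membrane's contact sites, had 68.3 and 68.6 TPM, and Dnajc30 had 41.0 and 41.1 TPM. Every one of these genes was below Hspa5 in the endoplasmic reticulum, or below Hspa9 in mitochondria, in both pools.

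Of the other Dnajb genes, Dnajb4 had 36.3 TPM in replicate 2 and 37.8 TPM in replicate 1, and Dnajb3 10.7 and 11.1 TPM. Dnajb13, of sperm tails and motile cilia, had 2.87 and 3.40 TPM, from 71 and 72 expected counts. Of the 6 markers of motile cilia that were measured, 4 were detected. The remaining Dnajc genes lay between 4.46 TPM (Dnajc25) and 56.0 TPM (Dnajc2) in replicate 2, and between 4.30 and 60.0 TPM for the same genes in replicate 1. Among them were Dnajc18, with 34.2 and 30.2 TPM in replicates 2 and 1, Dnajc12 with 22.3 and 18.8 TPM, and Dnajc27 with 21.2 and 17.4 TPM. Dnajc13, which acts on endosomes, had 18.9 and 17.3 TPM. It was one of the 10 genes with much of its TPM on short models, which held 69.0% of its TPM and 10.2% of its counts in replicate 2, and 65.1% and 9.42% in replicate 1.

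The 2 pools differed little over the chaperone genes. For 67 of them, with a mean of at least 50 expected counts, the log2 ratio of replicate 2 over replicate 1 was taken on scaled counts, as for 13267 protein-coding genes. None of the 67 reached 1.5-fold, against 3.08% of all protein-coding genes compared. Lower in replicate 2 were 40 of 67 (59.7%), against 47.2% of all protein-coding genes, with a median log2 ratio of -0.02 for the chaperone genes and 0.01 for all. The SD of the log2 ratio was 0.146 over the chaperone genes and 0.250 over all, and 47 of 67 (70.1%) lay within 1.1-fold, against 57.9% of all. The median level of the chaperone genes was above that of all genes, as given above, and its part in this narrower spread was not tested. No p-value is attached to these figures, since 2 pools of 1 group are compared.

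Among the genes with the highest levels the ratios were small. The HSP90 genes and Hsph1 were all lower in replicate 2, a direction taken by 47.2% of all protein-coding genes compared. The log2 ratios were -0.12 for Hsp90b1, -0.03 for Hsp90ab1, -0.02 for Hsp90aa1 and -0.17 for Hsph1. Hspa8 had -0.03, Hspa5 -0.07 and Hspa9 -0.08. Hspd1 and Hspe1 had -0.06 and -0.07. A 95% counting interval, which covers counting error only, lay off 0 for 28 of the 67 genes (41.8%), 12 of them higher and 16 lower in replicate 2, against 44.3% of all protein-coding genes compared. Among the genes named in this paragraph, the intervals of Hsp90aa1 and Hspe1 held 0.

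The largest differences, named here after their values were seen, were in genes higher in replicate 2. Hspa1a stood first, with a log2 ratio of 0.54 (95% counting interval 0.40 to 0.69), from 997 expected counts in replicate 2 and 603 in replicate 1. Hspb6 followed with 0.42 (0.12 to 0.72), from 235 and 155 expected counts. Next were Dnajc27 with 0.31, Hspa2 with 0.28, Dnajc12 with 0.27 and Dnajc6 with 0.27. The largest ratio in the other direction was that of Hspa1l, at -0.28 (-0.73 to 0.16), whose interval held 0. Beside these values, all 6 markers of radial glia and astrocytes were higher in replicate 2, with a median log2 ratio of 0.63 and 3 past 1.5-fold. All 5 microglial markers were higher, with a median of 0.22 and 1 past 1.5-fold. Of all protein-coding genes compared, 47.2% were lower in replicate 2 and 3.08% were past 1.5-fold in either direction. All 6 markers of midbrain territory were higher too, with a median of 0.23 and 1 past 1.5-fold, while 5 of 6 red cell markers were lower, with a median of -0.16 and 1 past 1.5-fold. The 6 neuronal markers were split, 3 higher and 3 lower, with a median of 0.04. Of 7 mural and smooth muscle markers compared, 1 was higher and 6 were lower in replicate 2, with a median of -0.04. Of 6 endothelial markers, 2 were higher and 4 lower, with a median of -0.11. The part of cell composition in the differences of Hspa1a and Hspb6 was not tested.

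**Figure D5:**
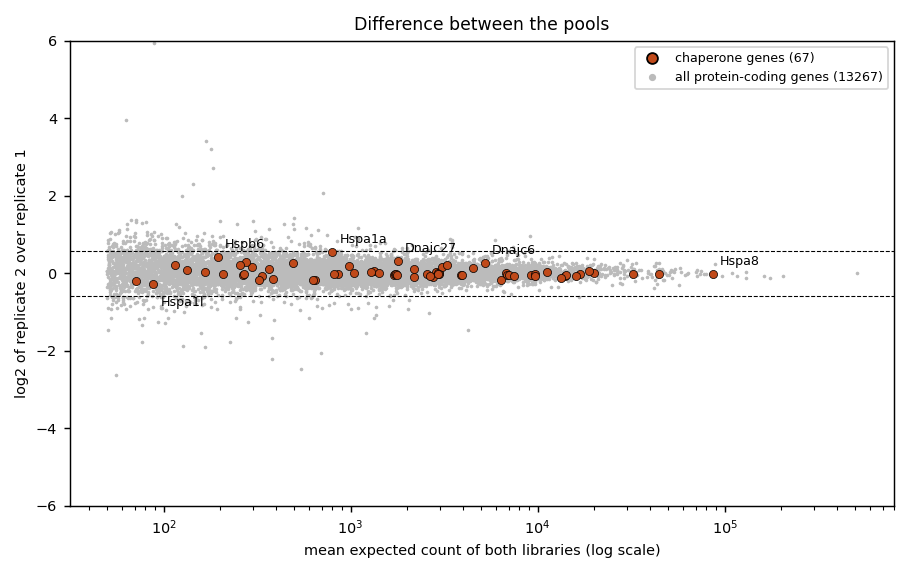
Log2 ratio of replicate 2 over replicate 1 against the mean expected count (log scale) for 67 chaperone genes (red) and 13267 protein-coding genes (grey), with dashed lines at 1.5-fold. All red points lie between the dashed lines, and Hspa1a is nearest to one.

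Genes that work with the chaperones but carry other symbols were described from 8 lists of 71 measured genes. Of these 67 were detected, where 62.1% of all protein-coding genes were. None of the 66 that could be compared reached 1.5-fold between the pools, against 3.08% of all protein-coding genes compared. In replicate 2, 27 were higher and 39 lower, where 47.2% of all protein-coding genes compared were lower. Among the heat shock factors, which switch on the inducible genes, Hsf2 had 38.5 TPM in replicate 2 and 44.4 TPM in replicate 1, and Hsf1 31.3 and 32.3 TPM. Hsf4, best known from the lens, had 0.33 and 0.30 TPM.

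Every one of the 13 exchange factors and other partners of HSP70 was detected. The highest were Stub1, a ubiquitin ligase that marks chaperone clients, with 241 TPM in replicate 2 and 224 TPM in replicate 1, and St13, with 182 and 180 TPM. Bag1 had 132 and 142 TPM. Bag3, a stress-induced partner of Hspb8, had only 2.29 and 1.58 TPM, and its log2 ratio of 0.57, just under 1.5-fold, was the largest of these lists, chosen after its value was seen. All 11 partners of HSP90 were detected, led by Ptges3 (p23) with 323 and 345 TPM, Fkbp4 with 295 and 328 TPM, and Ahsa1 with 177 and 172 TPM.

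Of the 10 partners of CCT all were detected. The prefoldin subunits Pfdn5, with 398 TPM in replicate 2 and 404 TPM in replicate 1, and Vbp1, with 274 and 282 TPM, stood with Tcp1 at the top. In the endoplasmic reticulum list all 13 genes were detected, led by the lectin chaperone Calr with 552 and 583 TPM, the disulfide isomerase Pdia3 with 314 and 334 TPM, and Canx with 246 and 257 TPM. Lower in replicate 2 were 11 of these 13, against 47.2% of all protein-coding genes compared, with a median log2 ratio of -0.04 and none past 1.5-fold. Ddit3, which rises when endoplasmic reticulum stress is prolonged, had 20.8 TPM in replicate 2 and 22.2 TPM in replicate 1.

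The mitochondrial proteases and unfoldases were all 4 detected, led by Clpp with 101 TPM in replicate 2 and 99.8 TPM in replicate 1, Clpb with 38.9 and 44.2 TPM, and Lonp1 with 35.0 and 35.6 TPM. Of 8 relatives of the chaperones under other symbols 6 were detected. Gak, the widely expressed auxilin, had 45.3 and 48.0 TPM, Trap1, the mitochondrial HSP90, 44.4 and 41.0 TPM, and Sec63 13.6 and 16.6 TPM. Cryaa, of the lens, had 0.17 TPM in replicate 2 and was at 0 in replicate 1, and Odf1, of sperm tails, was at 0 in both. Genes that respond early to tissue handling were also measured, and 8 of 9 were detected. Jun had 45.0 and 41.7 TPM, Dusp1 27.7 and 29.4 TPM, and Ier2 10.8 and 13.8 TPM, while Fosb had 0.04 TPM in both libraries. Neither direction was shared by all of these, with 2 higher and 5 lower in replicate 2 among the 7 compared.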

How the data were processed

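Total RNA-seq libraries of 2 midbrain pools were used, 1 gene and 1 transcript table each. Per the deposited readme, reads were mapped to mm10 and quantified with GENCODE M4 and spike-in sequences. The aligner and the quantifier: not given in the sources used here. Per the file headers, the expected count is an estimated number of reads, in which a read that matches several genes or transcripts is shared out between them. Deposited TPM is corrected for effective length and includes spike-ins in its total, per the file headers. Deposited FPKM served as an alternative only. The isoform share is a percent of the gene's TPM, per the file headers. Deposited posterior means of TPM were an alternative, and the deposited credibility intervals (a signal in TPM units) were read but not printed.

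Gene symbols, types and positions were taken from GENCODE M21 (GRCm38, as mm10), joined by identifier without version. Of the 79 genes, 53 had counts whole to within 0.005 in both libraries, and 23 shared over 10% of their 31-base words with other genes. Pool ratios used expected counts plus 0.5, for genes with a mean of at least 50, scaled by TMM (edgeR 4.0.16), or as an alternative by DESeq2 1.42.0 size factors, both computed after rounding expected counts to whole numbers. The steps were tested on simulated data. Python 3.11.15, numpy 2.4.6, pandas 2.3.3, scipy 1.17.1, matplotlib 3.10.9 and R 4.3.3 were used. Promoter windows are from RefSeq on GRCm38.p6.

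The labels number the libraries as biological replicates of 1 group, so every error is the spread between the pools, and a floor of 3 counts and the 95% intervals cover only counting error, as no molecular identifiers tell molecules from PCR copies. Members and gene lists were chosen with earlier results of these data known. Named genes are, per class, the 5 of highest mean TPM, every member below 1 TPM in both libraries, those past 1.5-fold between pools and those led by a non-coding transcript, and per further list the 3 highest and any below 1 TPM. Further names were chosen for the ratios, the promoter matches, or, as stated, after their values were seen.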

Additional observations from a re-analysis of the deposited data

How the results depend on the processing

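The counts of detected genes and of genes led by a non-coding transcript stayed within 1.5 times under the alternatives planned, and the median log2 ratio between pools lay between -0.05 and -0.02. With 2 libraries, leaving 1 out cannot move a mean beyond the spread between them, so it says nothing about stability; 67 members were detected in replicate 2 alone and 69 in replicate 1 alone. By expected counts 2 of 47 members (4.255%), in place of 3, were led by a non-coding transcript. The share over all protein-coding genes chosen the same way was 4.362%. No paired analysis was possible because there is only 1 group.

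Using expected counts with no length correction, the chaperone share of the protein-coding total was 1.319%, the log2 ratio of Hspa8 to Hspa5 2.433, of Hspd1 to Hspe1 1.87, of Hspa8 to Hspa1a 6.8 and of J-domain to HSP70 sums -0.06303, the variation over CCT subunits was 28.14%, and the log2 ratio of Hsp90ab1 to Hsp90aa1 turned to 0.4617. With long coding transcripts only, that ratio was 1.386 and the log2 ratio of Hspa8 to Hspa5 was 2.692. This alternative was chosen after seeing the data, as were summing Hspa1a with Hspa1b and leading transcripts by counts. The median level was 33.66 TPM on posterior means and 43.2 TPM over detected members only. With at least 10 counts, 2 members were past 1.5-fold, and with no count filter 8 were, all with a mean of 33 expected counts or fewer. The share of all protein-coding genes past 1.5-fold at these filters is not given here. With 2 units instead of 3, 19 members held a heat shock element, where 29.7% of the members stand beside 17.0% of all genes with a window. Depth limits the members below 1 TPM, which had few counts.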
